A study of Mus musculus with 20 samples.

Results

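Epithelial junction genes were examined in mouse kidney: the claudins and other membrane proteins of tight junctions, their scaffolds, the apical polarity proteins, the classical cadherins with their catenins, the desmosome proteins and EpCAM. They were chosen by symbol alone, as every gene of the expression table named as one of these families, with Cdh5, the cadherin of endothelial cells, left out. No other gene was left out for the cells that express it, so the rule does not limit the members to genes of epithelial cells. The rule found 60 genes of the 19940 in the table, and no measured value entered it. Of the 60, 49 had a normalized count of at least 10 in at least 5 libraries and were tested. The other 11 are described by their counts only. Gene coordinates are those of the GENCODE M21 annotation of GRCm38, and a fold change is on the scale of log2(normalized count + 1).

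RNA came from kidney tissue of male mice, and 20 libraries were made from it by sequencing the 3′ ends of polyadenylated RNA. The 4 groups held 5 libraries each: G3 Tert-/- mice at 47 weeks, called old, Tert+/+ mice at 47 weeks, G3 Tert-/- mice at 7 weeks, called young, and Tert+/+ mice at 7 weeks. Tert encodes the catalytic subunit of telomerase, and G3 marks generation 3 of mice bred without it, in which telomeres shorten from 1 generation to the next. The strain, the exons removed by the Tert allele and the litters of the mice are not given in the sources used here, and the labels name no agent given to these mice. The labels describe Tert-/- as the genotype of the mouse, and name no promoter or Cre line that would limit the loss to 1 cell type. The series title links short telomeres to epithelial-to-mesenchymal transition, so the comparisons address whether RNAs of the junctions that hold epithelia together differed between the genotypes, young or old, and between the ages.

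In kidney tubules, neighbouring cells are joined by tight junctions near the urinary side, by adherens junctions below them and by desmosomes. Claudins form the strands of the tight junction and set which ions pass between the cells, so each nephron segment has its own set of claudins. Cadherins of adjacent cells bind each other at the adherens junction and are tied to actin through catenins, while desmosomes tie the cells to keratin filaments. In epithelial-to-mesenchymal transition, repressors of the Snail and Zeb families bind E-box letters in promoters of junction genes and lower their RNA. Loss of E-cadherin is the usual sign of the transition.

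Promoters of 2 members, 1 of a polarity gene and 1 of an adhesion gene, are shown as examples of windows that hold several copies of the E-box letters read by these repressors. The motif searched was CAGGTG and its reverse complement CACCTG, which are 1 site read on either strand, in the 250 bases before each RefSeq transcript start of the GRCm38.p6 build. RefSeq promoters could be matched to 40 of the 60 members, and 12 of these 40 genes (30%) held the motif in at least 1 promoter, against 5252 of 27025 genes (19.4%) in the whole RefSeq promoter table. Cdh1, which encodes E-cadherin, was not among the 40, so its promoter was not searched. Of the cadherins only Cdh6 and Cdh24 were matched. The motif was found 3 times before 1 of the 2 RefSeq transcript starts of Crb3, which encodes an apical polarity protein of epithelia, at 118, 63 and 7 bases before that start, which lies inside the GENCODE M21 gene. It was found 2 times before the start of Epcam, an epithelial adhesion molecule, at 187 and 19 bases before the start. Several copies in 1 window were also found for Pard3, with 3, and for Cldn7, Ocln and Pard6b, with 2 each. Both windows lie on the plus strand of chromosome 17 and are given from 5′ to 3′, with the motif in capitals. Finding these letters is a description of the sequence, and no binding was measured.
Crb3 promoter, chr17:57061951-57062200: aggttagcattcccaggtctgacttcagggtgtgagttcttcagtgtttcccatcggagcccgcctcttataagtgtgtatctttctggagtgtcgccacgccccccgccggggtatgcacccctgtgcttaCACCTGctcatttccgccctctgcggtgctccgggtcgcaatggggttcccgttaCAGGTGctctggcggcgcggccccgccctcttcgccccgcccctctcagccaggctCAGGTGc
Epcam promoter, chr17:87635729-87635978: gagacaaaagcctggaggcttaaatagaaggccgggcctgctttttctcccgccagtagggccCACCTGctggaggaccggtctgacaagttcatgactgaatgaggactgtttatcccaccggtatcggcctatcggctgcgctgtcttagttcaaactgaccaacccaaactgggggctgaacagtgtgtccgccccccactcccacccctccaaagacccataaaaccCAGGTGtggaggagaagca

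Library totals were 7161690 to 9757594 reads assigned to genes, and values are given as normalized counts, that is reads divided by 1 size factor per library. Kidney markers were high in all 20 libraries: Umod, of the thick ascending limb, ranged from 5487 to 22542 normalized counts, and Slc34a1, of the proximal tubule, from 19405 to 41220. Tert itself was at 0.979 to 8.31 normalized counts in G3 Tert-/- libraries and 4.21 to 16.9 in Tert+/+ libraries. As the reads come from the 3′ end of the transcript, which the allele may leave in place, these counts do not check the genotype labels. A pair of Tert+/+ libraries stood apart from the rest. On principal component 1 (22% of the variance) Tert+/+ old replicate 4 was at 56.6 and Tert+/+ young replicate 1 at 67.5, with the other 18 between -39.4 and 21. Values without them are given beside the results that rested on 1 of them. In RNA of bulk tissue, fewer cells of a type and less RNA per cell cannot be told apart.

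No junction gene passed the test between genotypes at either age. At 47 weeks 0 of the 49 tested members passed an adjusted p of 0.05 in G3 Tert-/- against Tert+/+ kidneys by limma, where 0.0957% of all tested genes passed (0.0137% higher and 0.082% lower), and the smallest adjusted p of a member was 0.653. At an unadjusted p under 0.05 there were 4 members (8.16%), against 6.58% of all tested genes. At 7 weeks 0 members passed, as did 0% of all genes by limma, and 5 members (10.2%) had an unadjusted p under 0.05, against 10.7% of all genes. edgeR and DESeq2 also called 0 members in either comparison. The median log2 fold change of the members was 0.022 at 47 weeks, against 0.01 over all tested genes, and 0.021 at 7 weeks, against 0.0013 over all tested genes. No member separated the genotypes in the sense that all 5 libraries of one group lay above all 5 of the other, at either age, where 2.31% of all genes did so at 47 weeks and 1.4% at 7 weeks.

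A p that misses the threshold does not show that 2 groups are alike, so the 95% intervals of the differences were read as well. At 47 weeks the interval lay within a 2-fold change in either direction for 46 of the 49 members, and within 1.5-fold for 28. The 3 whose intervals reached beyond 2-fold at 47 weeks were Crb3, Ctnna2 and Ctnnd1. At 7 weeks 44 intervals lay within 2-fold and 23 within 1.5-fold, and those reaching further were of Cldn5, Crb3, Ctnnd1, Jam2 and Tjp3. The spread within groups was a median SD of 0.296 on the log2 scale for the members and 0.302 for all tested genes.

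**Figure D1:**
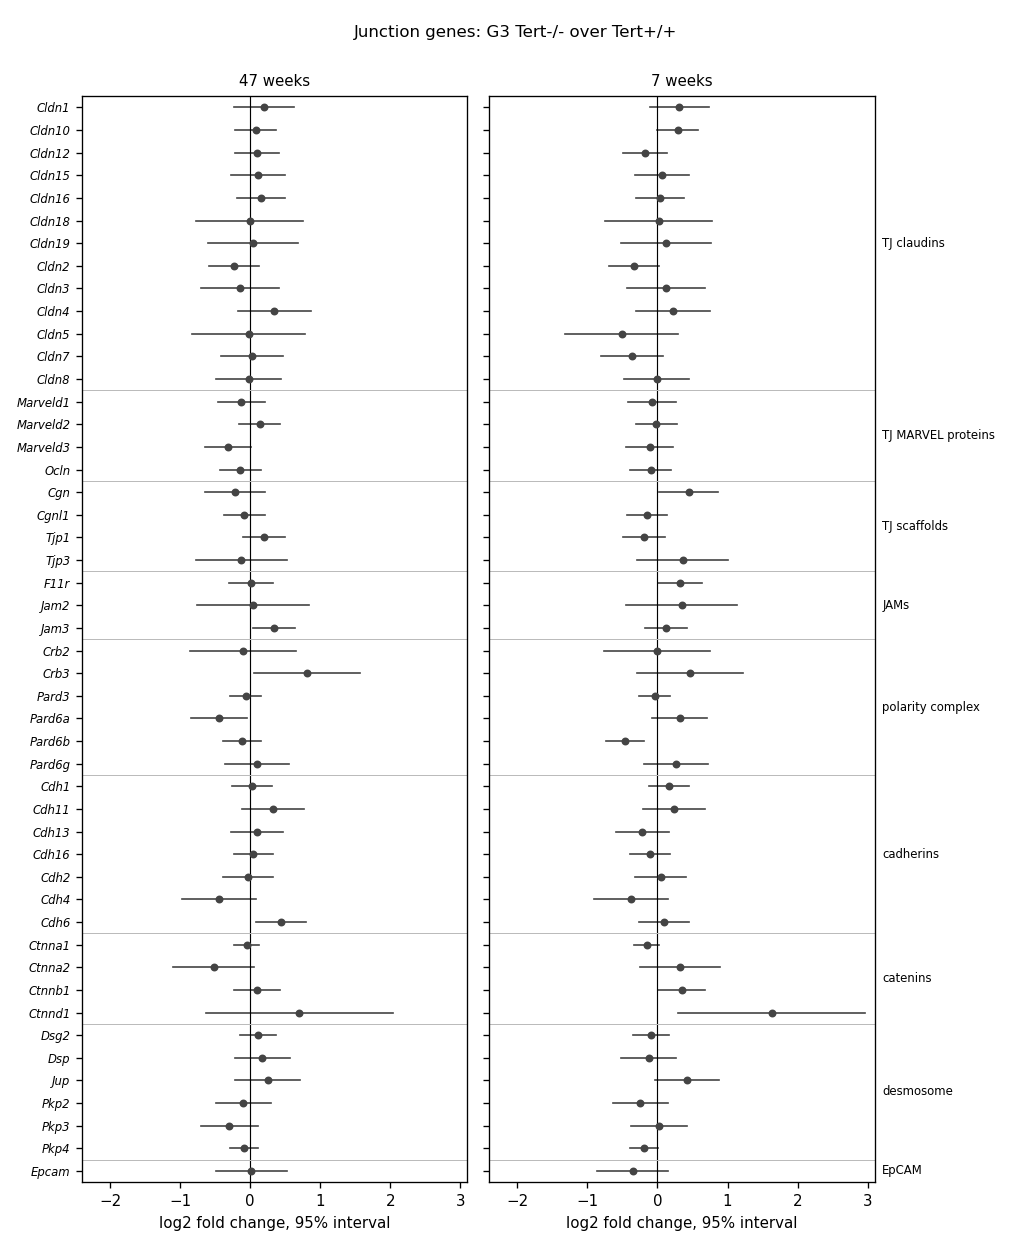
Log2 fold change of tested junction genes, G3 Tert-/- over Tert+/+, at 47 weeks (left) and 7 weeks (right), with points at the estimate and bars at the 95% interval from limma. Grey points mark genes with an adjusted p of 0.05 or more, which were all those shown at both ages, and the widest interval was that of Ctnnd1.

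With age, 1 junction gene passed the test. Dsg2 was the 1 of 49 members that passed in old against young G3 Tert-/- mice, where 2.24% of all tested genes passed (0.93% higher and 1.31% lower). In Tert+/+ kidneys 0 members passed with age, against 0.649% of all tested genes, and the smallest adjusted p was 0.124. edgeR and DESeq2 called the same numbers of members, 1 and 0. Unadjusted p-values under 0.05 were found for 6 members with age in G3 Tert-/- kidneys (12.2%, against 14.9% of all genes) and for 8 in Tert+/+ kidneys (16.3%, against 10.6%). Old and young libraries did not overlap for 2 members in G3 Tert-/- kidneys, Dsg2 and Pard6a, where 4.6% of all genes did not overlap, and for 1 in Tert+/+ kidneys, Tjp3, where 2.53% did not. The median log2 fold change with age was 0.0012 over the members in G3 Tert-/- kidneys, against 0.0031 over all genes, and 0.044 in Tert+/+ kidneys, against 0.0036. The 95% interval lay within 2-fold for 44 members in G3 Tert-/- and 42 in Tert+/+ kidneys.

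The difference between the genotype effects at the 2 ages, the interaction, passed for 0 members, where 0.00684% of all tested genes passed. It had an unadjusted p under 0.05 for 3 members (6.12%), against 6.22% of all genes, and edgeR and DESeq2 called 0 members. Its intervals were wider, with 36 of 49 within 2-fold. Without Tert+/+ young replicate 1 and Tert+/+ old replicate 4 together, the numbers of members that passed in the 5 comparisons were the same. The comparisons share groups, so they are not independent of each other.

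**Figure D2:**
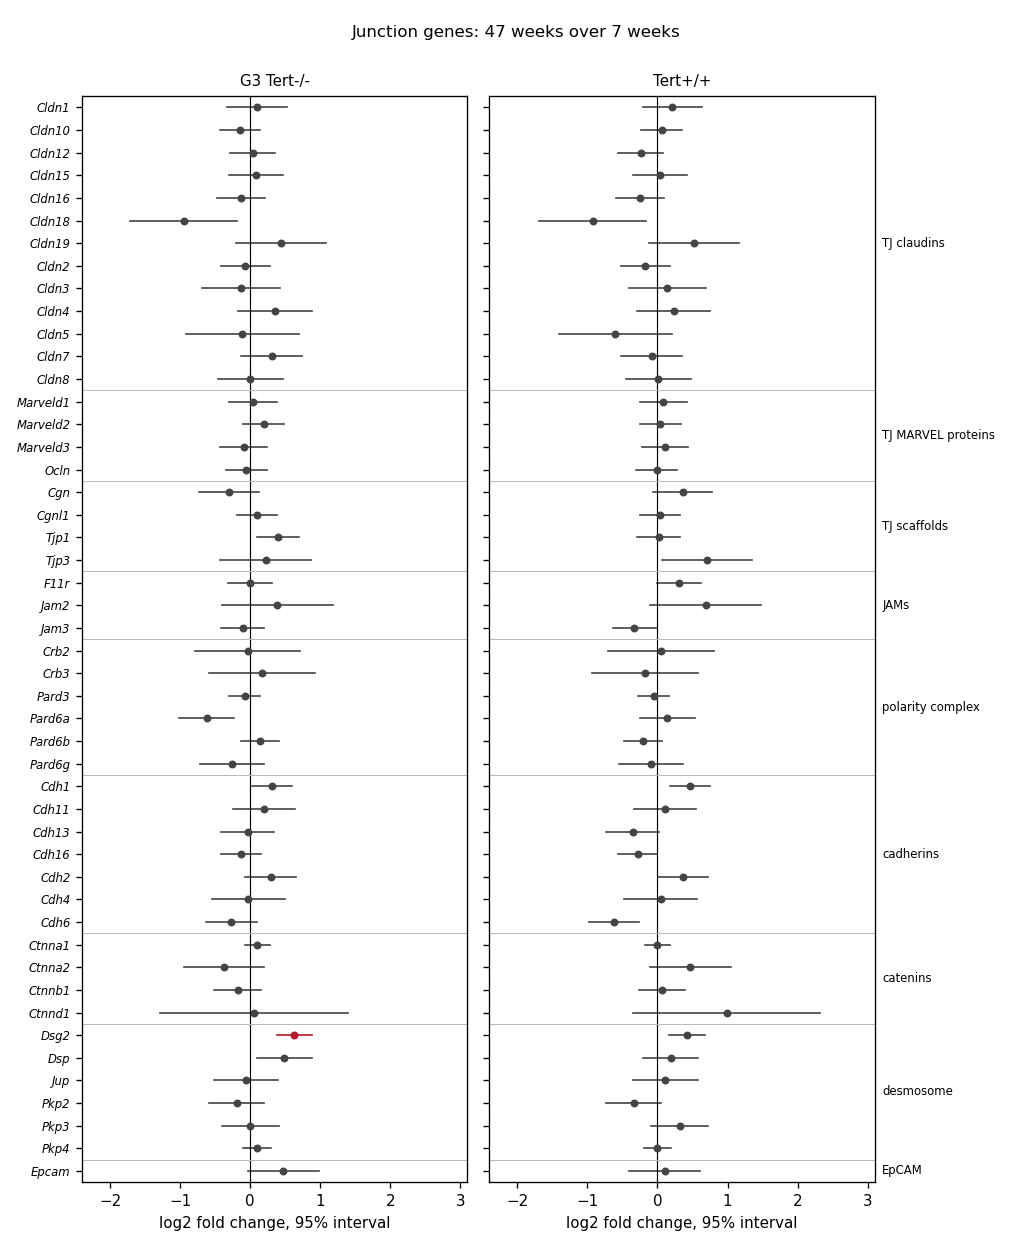
Log2 fold change of tested junction genes, 47 weeks over 7 weeks, in G3 Tert-/- (left) and Tert+/+ (right) kidneys, with points at the estimate and bars at the 95% interval from limma. The single red point is Dsg2 in G3 Tert-/- kidneys, the 1 member with an adjusted p under 0.05.

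Among the claudins, 17 were in the table and 13 were tested, and 0 of the 13 passed in any of the 5 comparisons. Their log2 fold changes between genotypes ran from -0.23 to 0.34 at 47 weeks and from -0.51 to 0.31 at 7 weeks, 8 of the 13 being above 0 at each age, and none had an unadjusted p under 0.05 there. Cldn2, which forms the sodium and water pore of the proximal tubule (chrX:139800828-139811386), had 2115, 2328, 2037, 2607 and 2096 normalized counts in old G3 Tert-/- kidneys and 2661, 2126, 2569, 3398 and 2466 in old Tert+/+ kidneys. In young kidneys it had 2697, 2936, 1935, 2288 and 1989 in G3 Tert-/- and 3899.9, 3289, 1758, 3443 and 2868 in Tert+/+ mice. The G3 Tert-/- means were below the Tert+/+ means in old and young mice, but the groups overlapped, with a log2 fold change of -0.23 ± 0.17 (SE) at 47 weeks (adjusted p = 0.856) and -0.33 ± 0.17 at 7 weeks (adjusted p = 0.478). Without Tert+/+ old replicate 4 the 47-week value was -0.14. The 7-week value was -0.23 without Tert+/+ young replicate 1 and -0.52 without Tert+/+ young replicate 3. Cldn10, whose isoforms form cation or anion channels in different segments (chr14:118787908-118875489), had 1159.8, 1184, 821, 1094 and 867 in old G3 Tert-/- kidneys, against 1011, 953, 1241, 652 and 1040.4 in old Tert+/+ kidneys. It had 994, 1199, 1208, 1262 and 978 in young G3 Tert-/- kidneys, against 898, 940.4, 1018, 897 and 849 in young Tert+/+ kidneys. The genotypes overlapped at both ages, and the log2 fold change was 0.079 ± 0.14 at 47 weeks and 0.29 ± 0.14 at 7 weeks (adjusted p = 0.471).

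Cldn16 and Cldn19 together form the route for magnesium and calcium in the thick ascending limb. Cldn16 (chr16:26463135-26482765) had 72.9, 81.9, 81.0, 102 and 81.8 normalized counts in old G3 Tert-/- kidneys and 74.6, 62.1, 93.5, 81.1 and 67.9 in old Tert+/+ kidneys. Young G3 Tert-/- kidneys had 82.7, 105, 91.4, 117 and 69.7 of Cldn16 and young Tert+/+ kidneys 78.7, 107, 110.5, 92.4 and 66.5. All 4 groups overlapped, and the interval of the genotype difference at 47 weeks was -0.19 to 0.49 on the log2 scale. For Cldn19 (chr4:119255414-119262438) the values were 131, 225, 178, 251 and 213 in old G3 Tert-/- kidneys and 156, 213, 187, 231 and 170.3 in old Tert+/+ kidneys. They were 147, 94.9, 124, 344 and 101 in young G3 Tert-/- kidneys, against 180.1, 178, 178, 125 and 55.5 in young Tert+/+ kidneys. The old libraries ranged from 131 to 251 and the young ones more widely, from 55.5 to 344. The summed thick ascending limb markers (7 of 7 genes in the table, none at 0) ranged from 19955 to 28923 in old and 15066 to 23442 in young G3 Tert-/- libraries and 19180 to 23665 in old and 11889 to 37182 in young Tert+/+ libraries. Cldn16 is itself 1 of those 7 markers, and the part of these markers in the Cldn19 values was not tested.

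Cldn4 and Cldn8 interact in the collecting duct, where they make a path for chloride. Cldn4 (chr5:134945119-134946934) had 83.5, 86.0, 79.0, 68.4 and 57.6 normalized counts in old G3 Tert-/- kidneys, against 56.0, 51.2, 54.5, 76.6 and 55.6 in old Tert+/+ kidneys. In young mice Cldn4 had 43.6, 55.8, 64.0, 123 and 33.2 in G3 Tert-/- kidneys, against 45.3, 58.8, 33.3, 48.1 and 69.0 in Tert+/+ kidneys. At 47 weeks all 5 G3 Tert-/- values were above the 4 lower Tert+/+ values, and Tert+/+ old replicate 4 lay among the G3 Tert-/- values; the log2 fold change was 0.34 ± 0.25, with an adjusted p of 0.854. Cldn8 (chr16:88560828-88563183) was at 124, 143, 113, 169.5 and 140.4 in old G3 Tert-/- kidneys, against 125, 130.0, 193, 143 and 115 in old Tert+/+ kidneys. It was at 124, 114, 127, 244 and 108 in young G3 Tert-/- kidneys, against 251, 138, 120.3, 116 and 101 in young Tert+/+ kidneys. The log2 fold change of Cldn8 was close to 0 in all comparisons, from -0.022 to 0.014, with 1 high library in each young group. Of the other 7 tested claudins, Cldn18 had the largest log2 fold change with age in G3 Tert-/- kidneys; it averaged 7.82 ± 3.64 in old G3 Tert-/- kidneys (SD, n = 5), against 15.99 ± 6.38 in young G3 Tert-/- kidneys. Its log2 fold change with age was -0.95 ± 0.37 in G3 Tert-/- (adjusted p = 0.208) and -0.92 ± 0.37 in Tert+/+ kidneys (adjusted p = 0.348). Cldn18 was chosen after its values were seen, and only 243 reads over the 20 libraries stand behind it. Cldn6, Cldn9, Cldn11 and Cldn22 stayed below the filter. Claudins are a family of related genes, and counting could divide or drop reads that match more than 1 of them.

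The 4 members that encode MARVEL-domain proteins (Ocln, Marveld1, Marveld2 and Marveld3) were all tested and 0 passed in any comparison. Their median log2 fold changes between genotypes were -0.13 at 47 weeks and -0.090 at 7 weeks. Occludin, encoded by Ocln (chr13:100496507-100552718), had 54.9, 52.2, 49.9, 63.3 and 52.5 normalized counts in old G3 Tert-/- kidneys, against 54.9, 65.0, 61.3, 63.1 and 56.8 in old Tert+/+ kidneys. It had 66.3, 55.8, 56.5, 47.3 and 59.0 in young G3 Tert-/- kidneys, against 73.8, 55.9, 73.4, 53.6 and 50.5 in young Tert+/+ kidneys. All groups overlapped, and its interval at 47 weeks, -0.43 to 0.15 on the log2 scale, left out a 1.5-fold change in either direction. Marveld2, tricellulin, which seals the points where 3 cells meet, had a log2 fold change of 0.14 ± 0.14 at 47 weeks and -0.016 ± 0.14 at 7 weeks.

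The 5 scaffold proteins beneath the tight junction were all tested and 0 passed. Tjp1 encodes ZO-1, which links claudins and occludin to actin (chr7:65296165-65527781); it had 169, 196, 221, 226 and 195 normalized counts in old G3 Tert-/- kidneys, against 154, 194, 145, 158 and 236 in old Tert+/+ kidneys. Its values were 139, 125, 156, 141 and 207 in young G3 Tert-/- kidneys, against 184, 157, 189, 152 and 184 in young Tert+/+ kidneys. All 5 old G3 Tert-/- libraries were above 4 of the 5 young ones, for a log2 fold change with age of 0.40 ± 0.15 and an adjusted p of 0.174, and in Tert+/+ mice the log2 fold change was 0.015 ± 0.15 (adjusted p = 0.984). Cgn encodes cingulin, which ties ZO-1 to actomyosin (chr3:94760069-94786492), and had 71.8, 54.2, 66.5, 55.1 and 62.6 in old G3 Tert-/- kidneys, against 58.0, 78.8, 108, 48.4 and 80.1 in old Tert+/+ kidneys. It had 69.9, 77.3, 91.4, 78.9 and 66.5 in young G3 Tert-/- kidneys, against 45.3, 54.0, 78.2, 74.9 and 37.9 in young Tert+/+ kidneys. The genotype effects had opposite signs at the 2 ages, -0.22 ± 0.21 at 47 weeks and 0.44 ± 0.21 at 7 weeks; the interaction of -0.66 ± 0.29 had an unadjusted p of 0.0333 and an adjusted p of 0.791. The 47-week value of Cgn was -0.072 without Tert+/+ old replicate 3 and -0.36 without Tert+/+ old replicate 4. Tjp3, which encodes ZO-3 and was chosen after its values were seen, had 41.5, 41.4, 59.4, 42.8 and 44.5 in old Tert+/+ kidneys, against 27.6, 36.6, 37.2, 20.3 and 20.2 in young Tert+/+ kidneys. These values did not overlap, but the log2 fold change of 0.71 ± 0.31 had an adjusted p of 0.401.

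The junctional adhesion molecules F11r, Jam2 and Jam3, immunoglobulin-type proteins beside the tight junction strands, were all tested and 0 passed. Jam3 (chr9:27097384-27155421) had 150.0, 142, 102, 124 and 119 normalized counts in old G3 Tert-/- kidneys, against 108, 94.6, 119, 74.3 and 108 in old Tert+/+ kidneys. Young G3 Tert-/- kidneys had 114, 144, 119.6, 176 and 136, against 144, 114, 114, 128 and 129 in young Tert+/+ kidneys. The old groups averaged 127 ± 19.2 in G3 Tert-/- and 101 ± 17.1 in Tert+/+ mice (SD, n = 5 each) and overlapped, and the log2 fold change of 0.34 ± 0.15 had an unadjusted p of 0.0289 and an adjusted p of 0.709. Without Tert+/+ old replicate 4, which had the lowest Jam3 value of all libraries, the 47-week value was 0.24.

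The apical polarity proteins of the Crumbs and Par complexes define where the tight junction forms; 7 were in the table, 6 were tested and 0 passed. Pard6a encodes an adaptor that joins atypical protein kinase C to Par3 (chr8:105701148-105703496), and had 62.3, 48.1, 61.3, 38.8 and 39.4 normalized counts in old G3 Tert-/- kidneys, against 72.5, 70.0, 50.6, 75.5 and 70.1 in old Tert+/+ kidneys. It had 64.5, 77.3, 89.5, 85.5 and 65.4 in young G3 Tert-/- kidneys, against 45.3, 71.4, 45.0, 84.1 and 67.3 in young Tert+/+ kidneys. All 5 old G3 Tert-/- libraries were below all 5 young ones, for a log2 fold change with age of -0.62 ± 0.19, an unadjusted p of 0.00359 and an adjusted p of 0.0969. The difference between the genotype effects at the 2 ages was -0.76 ± 0.27, the smallest p of any member in that comparison (0.00974 by limma, adjusted p = 0.774); at 47 weeks the genotype effect was -0.45 ± 0.19 and at 7 weeks 0.31 ± 0.19.

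Pard6b, the paralogue found at the apical side of epithelia (chr2:168081004-168101203), had 214, 166, 159, 160.3 and 162 in old G3 Tert-/- kidneys, against 174, 172, 204, 182 and 197 in old Tert+/+ kidneys. It had 169.9, 171, 137, 117 and 197 in young G3 Tert-/- kidneys, against 233, 226, 220.1, 220.0 and 182 in young Tert+/+ kidneys. At 7 weeks 4 of 5 G3 Tert-/- libraries were below all Tert+/+ libraries and the means were 158 ± 31.6 in G3 Tert-/- and 216 ± 19.98 in Tert+/+ kidneys (SD, n = 5 each); this was the smallest p of a member in that comparison (0.00173 by limma), with a log2 fold change of -0.46 ± 0.13 and an adjusted p of 0.417. The Crumbs gene Crb3 (chr17:57059105-57065918), whose promoter is shown above and which was chosen after its values were seen, had 75.0, 79.8, 67.5, 70.5 and 51.5 in old G3 Tert-/- kidneys, against 61.1, 71.9, 44.8, 7.88 and 51.2 in old Tert+/+ kidneys. In young kidneys Crb3 had 70.8, 50.9, 76.3, 55.6 and 53.6 in G3 Tert-/- mice, against 57.1, 35.7, 36.2, 48.1 and 45.4 in Tert+/+ mice. The 47-week log2 fold change of 0.81 ± 0.36 (adjusted p = 0.73) rested on Tert+/+ old replicate 4, at 7.88, and was 0.27 without that library. Pard3, the Par3 scaffold, was among the least variable members, with a log2 fold change of -0.065 ± 0.11 at 47 weeks.

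**Figure D3:**
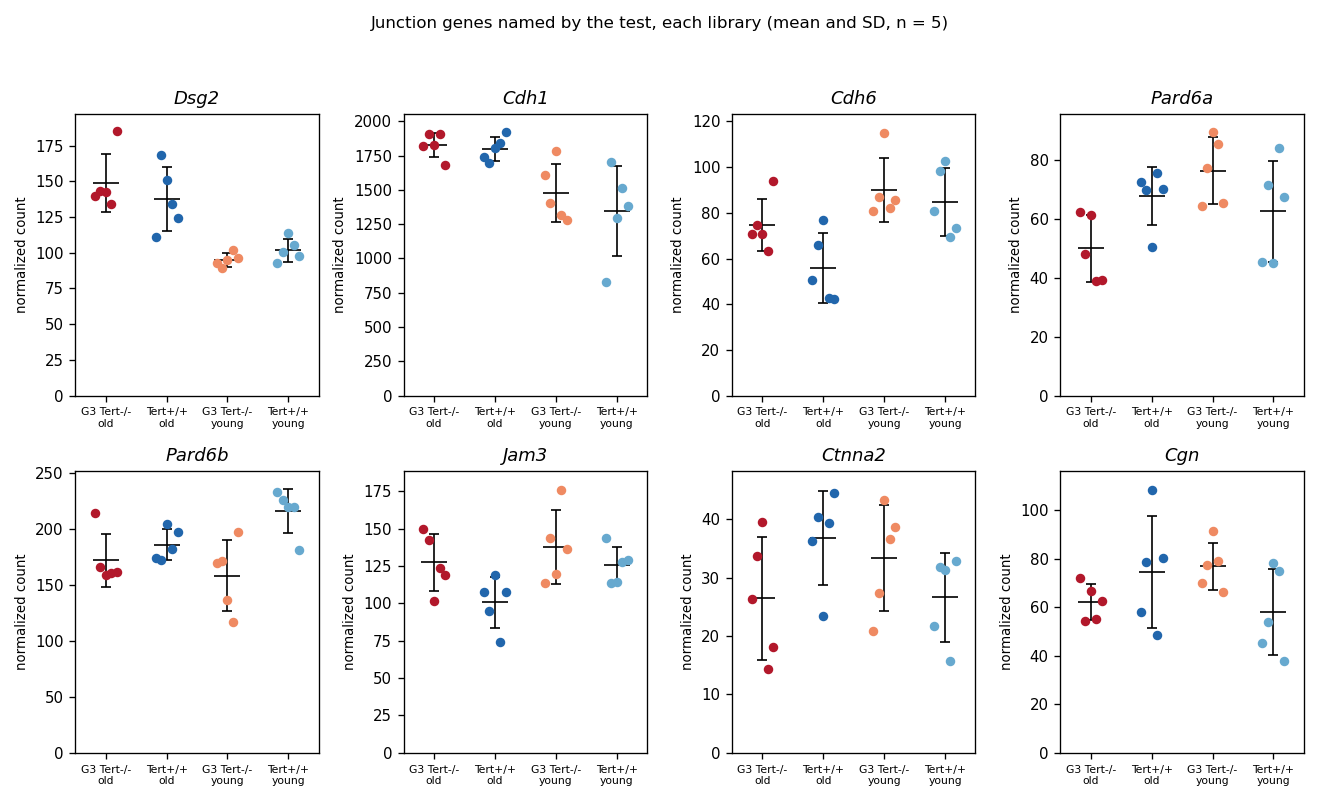
Normalized counts of 8 junction genes that passed or were among the 3 smallest p-values in a comparison, in each library of the 4 groups, with points for libraries and bars for the mean and SD (n = 5). Only Dsg2 and Pard6a have old and young G3 Tert-/- libraries that do not overlap.

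Of the classical cadherins and their relatives, 10 were in the table, 7 were tested and 0 passed. With age in Tert+/+ kidneys 4 of the 7 (57.1%) had an unadjusted limma p under 0.05, against 10.6% of all tested genes. Of these, Cdh1 and Cdh2 had log2 fold changes above 0, and Cdh6 and Cdh16 below 0. In G3 Tert-/- kidneys it was 1 of the 7 (14.3%), against 14.9%. E-cadherin, encoded by Cdh1 (chr8:106603351-106670246), had 1816, 1903, 1825, 1906 and 1684 normalized counts in old G3 Tert-/- kidneys, against 1738, 1696, 1802, 1840.1 and 1921 in old Tert+/+ kidneys. It had 1609, 1405, 1780.2, 1319 and 1283 in young G3 Tert-/- kidneys, against 829.6, 1704, 1292, 1515 and 1385 in young Tert+/+ kidneys. The old libraries were close together, and the interval of the genotype difference at 47 weeks was -0.26 to 0.31 on the log2 scale. Old means were above young means in both genotypes, with log2 fold changes of 0.31 ± 0.14 in G3 Tert-/- (adjusted p = 0.273) and 0.46 ± 0.14 in Tert+/+ kidneys (adjusted p = 0.155). Tert+/+ young replicate 1, at 830, was the lowest, and without it the Tert+/+ value was 0.29 (adjusted p = 0.243).

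N-cadherin, which in the kidney is found in the proximal tubule, is encoded by Cdh2 (chr18:16588877-16809246). It had 83.5, 86.0, 85.2, 91.9 and 89.9 normalized counts in old G3 Tert-/- kidneys, against 98.4, 95.6, 99.3, 69.8 and 85.7 in old Tert+/+ kidneys. In young kidneys it had 67.2, 51.9, 57.5, 107 and 84.7 in G3 Tert-/- mice, against 84.6, 50.1, 68.5, 72.1 and 74.0 in Tert+/+ mice. The genotypes overlapped at both ages, with log2 fold changes of -0.029 ± 0.17 at 47 weeks and 0.045 ± 0.17 at 7 weeks, so neither Cdh1 nor Cdh2 passed between genotypes. With age the log2 fold change of Cdh2 was 0.29 ± 0.17 in G3 Tert-/- kidneys (adjusted p = 0.463 by limma). In Tert+/+ kidneys it was 0.365 ± 0.17 (limma unadjusted p = 0.0482, adjusted p = 0.459). Cdh16 encodes the kidney-specific cadherin of tubule cells (chr8:104601911-104624396) and was at 1502, 1712, 1679, 1709 and 1679 in old G3 Tert-/- kidneys, against 1588, 1576, 1555, 1840.1 and 1482 in old Tert+/+ kidneys. It was at 1666, 1884, 1626, 2213 and 1727 in young G3 Tert-/- kidneys, against 3124, 1782, 1676, 1724 and 1754 in young Tert+/+ kidneys. Apart from the 3124 of Tert+/+ young replicate 1, all values lay between 1482 and 2213, and the groups overlapped. With age the log2 fold change of Cdh16 was -0.13 ± 0.14 in G3 Tert-/- kidneys (adjusted p = 0.716 by limma). In Tert+/+ kidneys it was -0.28 ± 0.14 (limma unadjusted p = 0.0484, adjusted p = 0.46).

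Cdh6, the kidney cadherin of the developing nephron and proximal tubule (chr15:13028701-13173675), had the smallest p of a member between genotypes at 47 weeks and with age in Tert+/+ mice. It had 70.8, 74.7, 70.6, 63.3 and 94.0 normalized counts in old G3 Tert-/- kidneys, against 50.8, 66.0, 76.9, 42.8 and 42.3 in old Tert+/+ kidneys. It had 80.8, 87.1, 115, 82.2 and 85.8 in young G3 Tert-/- kidneys, against 80.7, 98.4, 103, 69.3 and 73.2 in young Tert+/+ kidneys. Old Tert+/+ kidneys had the lowest values, and they overlapped both old G3 Tert-/- and young Tert+/+ kidneys. The log2 fold change was 0.44 ± 0.17 between genotypes at 47 weeks (limma unadjusted p = 0.0181, adjusted p = 0.653), and with age -0.62 ± 0.17 in Tert+/+ (adjusted p = 0.124) and -0.27 ± 0.17 in G3 Tert-/- kidneys (adjusted p = 0.505). The difference between the 2 age effects was 0.35 ± 0.25 (adjusted p = 0.837). The untested cadherins were Cdh3, Cdh19 and Cdh24, with at most 13.5 normalized counts in any library.

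Of the catenins, 6 were in the table, 4 were tested and 0 passed. Beta-catenin, which binds the tail of E-cadherin and also acts in Wnt signalling, is encoded by Ctnnb1 (chr9:120929216-120960507). It had 2567, 2227, 1931, 1975 and 1808 normalized counts in old G3 Tert-/- kidneys, against 2040.4, 1966, 2128, 1681 and 1943 in old Tert+/+ kidneys. It had 2207, 2594, 2960.4, 2152 and 2017 in young G3 Tert-/- kidneys, against 1093, 2165, 1842, 2264 and 2244 in young Tert+/+ kidneys. The log2 fold change at 7 weeks of 0.35 ± 0.16 (adjusted p = 0.466) was 0.16 without Tert+/+ young replicate 1, the lowest library.

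Ctnna2 encodes the alpha-catenin known best from neurons (chr6:76881637-77979699). It had 26.4, 33.8, 39.5, 14.3 and 18.2 in old G3 Tert-/- kidneys, against 36.3, 40.4, 23.4, 39.4 and 44.5 in old Tert+/+ kidneys. It had 20.9, 27.4, 43.3, 36.5 and 38.6 in young G3 Tert-/- kidneys, against 21.6, 31.8, 31.3, 15.7 and 32.8 in young Tert+/+ kidneys. The groups overlapped, and the interaction of -0.84 ± 0.39 had an unadjusted p of 0.0426 and an adjusted p of 0.793. Ctnna1, the alpha-catenin of epithelia, had the smallest spread within groups of all tested members, with a log2 SD of 0.104, and a genotype effect of -0.047 ± 0.086 at 47 weeks and -0.15 ± 0.086 at 7 weeks.

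Ctnnd1 encodes p120-catenin, which keeps cadherins at the cell surface (chr2:84600071-84650765), and was the most variable member, with a log2 SD of 1.21 within groups. It had 296, 247, 232, 236 and 112 normalized counts in old G3 Tert-/- kidneys, against 203, 174, 206, 21.4 and 244 in old Tert+/+ kidneys. It had 224, 208, 320.2, 169 and 146 in young G3 Tert-/- kidneys, against 18.7, 16.4, 202, 76.7 and 246 in young Tert+/+ kidneys. The 16 libraries other than Tert+/+ old replicate 4 and Tert+/+ young replicates 1, 2 and 4 lay between 112 and 320.2, and those 4 Tert+/+ libraries lay between 16.4 and 76.7. The log2 fold change between genotypes was 1.63 ± 0.65 at 7 weeks (limma unadjusted p = 0.019, adjusted p = 0.435) and 0.70 ± 0.65 at 47 weeks (adjusted p = 0.883). Without Tert+/+ old replicate 4 the 47-week value was 0.058, and without both libraries that stood apart the 7-week value was 1.19 (adjusted p = 0.509). edgeR and DESeq2, which are fitted to the counts themselves, put the 7-week value at 0.93.

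Jup encodes plakoglobin, a catenin shared by adherens junctions and desmosomes (chr11:100368958-100397763). It is counted here with the desmosome genes and was chosen after its values were seen. It had 333, 316, 287, 272 and 254 normalized counts in old G3 Tert-/- kidneys, against 264, 310.3, 286, 116 and 318 in old Tert+/+ kidneys. It had 285, 311, 373, 279 and 276 in young G3 Tert-/- kidneys, against 170.2, 168, 305, 209 and 321 in young Tert+/+ kidneys. Its 4 lowest libraries were the same 4 Tert+/+ libraries in which Ctnnd1 was low. These libraries included both that stood apart on principal component 1 and Tert+/+ young replicate 2, the next on it at 21, but also Tert+/+ young replicate 4, at 0.7. In Tert+/+ old replicate 4 the hepatocyte marker sum (9 of 9 genes in the table, Ahsg at 0 in some libraries) was 2591 normalized counts, against 769 to 968 in the other old Tert+/+ libraries and 473 to 1083 in old G3 Tert-/- libraries, and in Tert+/+ young replicate 1 the summed mitochondrial and stress genes (9 of 9 in the table, Fos at 0 in some libraries) were at 422043, against 1008860 to 1498890 in the other 19 libraries. The part of these differences in the Ctnnd1, Jup, Crb3 and Cdh1 values was not tested.

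**Figure D4:**
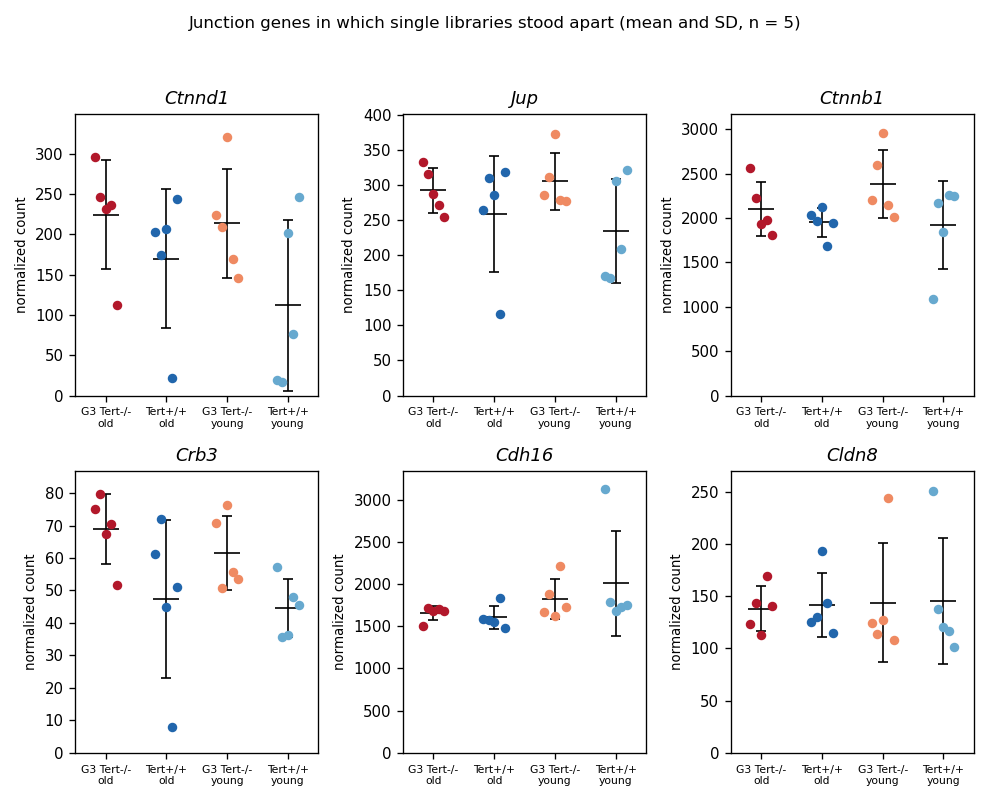
Normalized counts of 6 junction genes in which some libraries lay far from the rest, with points for libraries and bars for the mean and SD (n = 5). Ctnnd1 and Jup were low in Tert+/+ old replicate 4 and Tert+/+ young replicates 1, 2 and 4. Crb3 was at 7.88 in 1 old Tert+/+ library, and Cdh16 and Cldn8 were highest in 1 young Tert+/+ library.

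The desmosome genes held the 1 member that passed, with age in G3 Tert-/- kidneys, where 2.24% of all tested genes passed. Of 7 in the table, 6 were tested. Dsg2, which encodes desmoglein 2, the desmosomal cadherin of simple epithelia (chr18:20558074-20604521), had 139, 143, 142, 134 and 185 normalized counts in old G3 Tert-/- kidneys, against 92.7, 89.0, 95.1, 102 and 96.5 in young G3 Tert-/- kidneys. It had 111, 168, 151, 134 and 125 in old Tert+/+ kidneys, against 92.5, 100.3, 114, 105 and 97.6 in young Tert+/+ kidneys. All 5 old G3 Tert-/- libraries were above all 5 young ones, and in Tert+/+ mice 4 of 5 old libraries were above all young ones. Dsg2 rose with age in G3 Tert-/- kidneys, to 149 ± 20.6 in old against 95.1 ± 4.85 in young mice (SD, n = 5 each), a log2 fold change of 0.63 ± 0.12 with an adjusted p of 0.00563. In Tert+/+ kidneys the means were 138 ± 22.5 in old and 102 ± 7.98 in young mice, with a log2 fold change of 0.42 ± 0.12 that did not pass (adjusted p = 0.14). The 2 age effects were not shown to differ, since the interaction was 0.21 ± 0.17 with an adjusted p of 0.865. Between genotypes the log2 fold change was 0.11 ± 0.12 at 47 weeks and -0.096 ± 0.12 at 7 weeks. The rise in G3 Tert-/- kidneys passed under all 19 alternatives tried, with log2 fold changes of 0.55 to 0.67 and adjusted p-values of 0.000347 to 0.0227 when libraries, scaling, filters or tools were changed.

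Markers of the urothelium, the lining of the renal pelvis and a tissue rich in desmosomes, had log2 fold changes above 0 with age, as Dsg2 did. The summed count of the urothelium markers (8 of 8 genes in the table) was 157 to 435 in old G3 Tert-/- libraries, against 14.5 to 302 in young G3 Tert-/- libraries, and 52.9 to 226 in old Tert+/+ libraries, against 20.2 to 171 in young Tert+/+ libraries. Upk2, Upk3a, Krt5, Trp63 and Psca were at 0 in at least 1 library. The 7 of these markers that were tested had positive log2 fold changes with age in both genotypes, and 0 passed by limma, edgeR or DESeq2, with 6 at an unadjusted p under 0.05 in G3 Tert-/- kidneys, where 14.9% of all tested genes were, and 2 in Tert+/+ kidneys, where 10.6% were. Of the young G3 Tert-/- libraries, replicates 3 and 4 had marker sums of 297 and 302, inside the range of the old ones. The collecting duct marker sum (11 of 11 genes, none at 0) was 3219 to 4055 in old and 3023 to 3649 in young G3 Tert-/- libraries. In Tert+/+ libraries it was 2972 to 3392 in old and 3122 to 4843 in young mice. With age 5 of these markers were above 0 and 6 below in G3 Tert-/- kidneys (median -0.0026). In Tert+/+ kidneys 3 were above 0 and 8 below (median -0.13), and 0 passed in either genotype. Among nephron segment markers, the distal tubule list (6 of 6 genes in the table, none at 0) summed to 12776 to 16300.1 normalized counts in old and 10919 to 13546 in young G3 Tert-/- libraries, and to 13056 to 16043 in old and 11883 to 14211 in young Tert+/+ libraries. In it Slc12a3, the sodium chloride cotransporter, rose with age in both genotypes without overlap. Its log2 fold change was 0.62 in G3 Tert-/- (adjusted p = 0.00252) and 0.57 in Tert+/+ kidneys (adjusted p = 0.0109). Calb1 fell in G3 Tert-/- kidneys, with a log2 fold change of -0.61 (adjusted p = 0.0327). Of the 6 distal markers 4 were above 0 with age in each genotype, with medians of 0.12 in G3 Tert-/- and 0.13 in Tert+/+ kidneys. The thick ascending limb list, whose sums are given above, had 5 of 7 log2 fold changes above 0 with age in G3 Tert-/- kidneys, with a median of 0.30, and 3 of 7 in Tert+/+ kidneys, with a median of -0.071; 0 passed by limma or edgeR, 3 and 2 had an unadjusted limma p under 0.05 in G3 Tert-/- and Tert+/+ kidneys, and DESeq2 called Ptger3 and Slc12a1 in G3 Tert-/- kidneys. Of 10 proximal tubule markers (none at 0), Slc22a6 and Slc5a2 passed by limma with age in G3 Tert-/- kidneys, where 2.24% of all tested genes passed. Their log2 fold changes were -0.69 (adjusted p = 0.0399) and -0.58 (adjusted p = 0.0338), and DESeq2 also called Slc22a8. With age 5 of the 10 were above 0 and 5 below in G3 Tert-/- kidneys (median -0.090). In Tert+/+ kidneys 3 were above 0 and 7 below (median -0.12), and 0 passed. The sums were 46108 to 50585 in old and 48066 to 58558 in young G3 Tert-/- libraries, and 45443 to 54972 in old and 50754 to 66112 in young Tert+/+ libraries. The part of these markers in the rise of Dsg2 was not tested.

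Desmoplakin, which ties desmosomes to keratin and is encoded by Dsp (chr13:38151294-38198577), had 144, 217, 319, 228 and 236 normalized counts in old G3 Tert-/- kidneys, against 166, 146, 155, 164 and 158 in young G3 Tert-/- kidneys. It had 136, 217, 226, 185 and 238 in old Tert+/+ kidneys, against 224, 209, 187, 139 and 123 in young Tert+/+ kidneys. Of the old G3 Tert-/- libraries 4 of 5 were above all young ones, and the log2 fold change of 0.49 ± 0.19 had an unadjusted p of 0.017 and an adjusted p of 0.208. The plakophilins, armadillo proteins that bind desmoplakin, were nearer to 0: Pkp2 had a log2 fold change with age of -0.19 ± 0.19 in G3 Tert-/- kidneys, Pkp3 0.0001 ± 0.20 and Pkp4, a relative found mainly at adherens junctions, 0.099 ± 0.096. Dsc2, the desmocollin partner of Dsg2, stayed below the filter, with at most 10.1 normalized counts in any library.

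Epcam encodes EpCAM, an adhesion molecule of the distal nephron and collecting duct that stabilises claudins (chr17:87635979-87651129). It had 297, 376, 375, 440.2 and 296 normalized counts in old G3 Tert-/- kidneys, against 260.1, 458, 407, 288 and 372 in old Tert+/+ kidneys. It had 279, 203, 254, 405 and 182 in young G3 Tert-/- kidneys, against 625, 314, 328, 309 and 183 in young Tert+/+ kidneys. The old groups had nearly the same mean, 357 ± 61.1 in G3 Tert-/- and 357 ± 82.2 in Tert+/+ kidneys (SD, n = 5 each), and the log2 fold change was 0.013 ± 0.24, with an interval of -0.49 to 0.52. At 7 weeks it was -0.35 ± 0.24 (adjusted p = 0.568), where Tert+/+ young replicate 1 had the highest value, and -0.12 without that library; it was -0.56 without Tert+/+ young replicate 5 and -0.23 without G3 Tert-/- young replicate 5.

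Single libraries held many of the members' highest and lowest values. Tert+/+ young replicate 1 held the highest value of 13 members and the lowest of 4, so that 34.7% of the tested members had an extreme there, against 34% of all tested genes. G3 Tert-/- young replicate 4 held the highest of 9 and the lowest of 6 (30.6%, against 20.4% of all genes), and Tert+/+ old replicate 4 the highest of 3 and the lowest of 4 (14.3%, against 23%). The highest in G3 Tert-/- young replicate 4 were Cldn3, Cldn4, Cldn10, Cldn16, Cldn19, Tjp3, F11r, Jam3 and Cdh2, and the lowest included Ocln, Marveld2, Cgnl1, Pard6b and Pkp4. In the same library the thick ascending limb markers summed to 23442 normalized counts, against 15066 to 19889 in the other young G3 Tert-/- libraries, and the collecting duct markers to 3649, against 3023 to 3456. Tert+/+ young replicate 1 had 37182 of the thick ascending limb and 4843 of the collecting duct markers, against 11889 to 21964 and 3122 to 3257 in the other young Tert+/+ libraries. The part of these segment markers in the junction gene values was not tested.

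**Figure D5:**
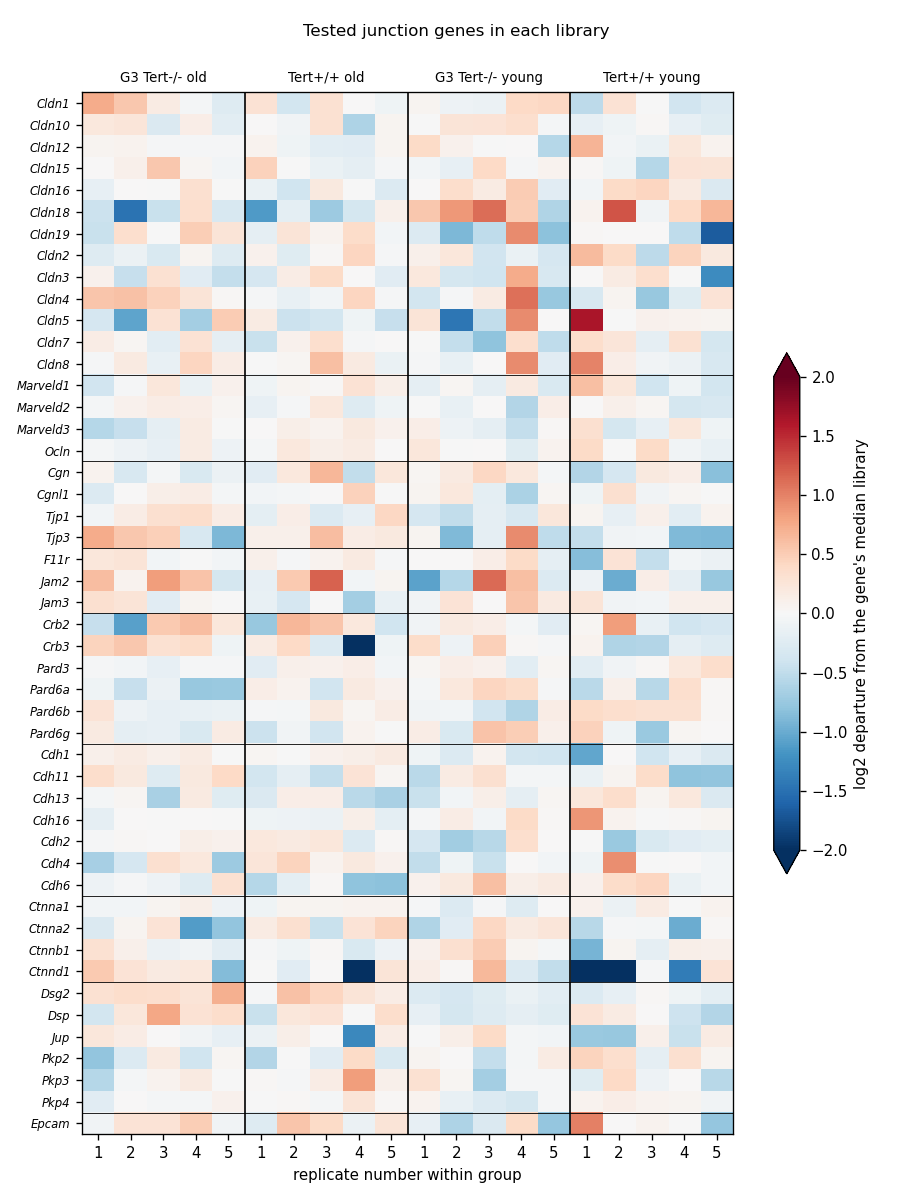
Log2 departure of tested junction genes, each from its own median over the 20 libraries, with genes in rows by role and libraries in columns by group, red for higher and blue for lower and the scale ending at -2 and 2. The 4 cells below -2 are Ctnnd1 in Tert+/+ old replicate 4 and Tert+/+ young replicates 1 and 2, and Crb3 in Tert+/+ old replicate 4.

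The other genes of these structures were read from 8 lists. None of the 105 genes on them passed in the interaction by limma, edgeR or DESeq2, with 4 (3.81%) at an unadjusted p under 0.05, against 6.22% of all tested genes. Of 24 tested genes that accompany tight junctions, 18 that accompany adherens junctions, 15 of cell polarity, 8 keratins and desmosome linkers, 5 connexins, 14 protocadherins and atypical cadherins and 13 epithelial transcription and splicing factors, 0 passed between genotypes at either age by limma. With the epithelial-to-mesenchymal transition genes below, the lists held 105 tested genes, of which 9 (8.57%) had an unadjusted p under 0.05 between genotypes at 47 weeks, against 6.58% of all tested genes, and 11 (10.5%) at 7 weeks, against 10.7%, and edgeR and DESeq2 called 0 at either age. The median log2 fold changes between genotypes at 47 weeks were -0.018 for the tight junction list, 0.094 for the adherens junction list, 0.13 for polarity, 0.33 for keratins and linkers, -0.12 for connexins, -0.13 for the protocadherins and 0.028 for the epithelial factors, against 0.01 over all tested genes. In that comparison all 7 tested urothelium markers were above 0 (median 0.74), and Krt5 is on both this list and that of keratins. All 11 collecting duct (median 0.14) and all 7 thick ascending limb markers (median 0.26) were above 0 too, while 5 of 10 proximal tubule markers were below 0. Of these markers 0 passed, and their part in the medians was not tested. With age, 1 gene of these 7 lists passed in each genotype, where 2.24% of all tested genes passed in G3 Tert-/- and 0.649% in Tert+/+ kidneys. Over all 8 lists 19 of the 105 genes (18.1%) had an unadjusted p under 0.05 with age in G3 Tert-/- kidneys, against 14.9% of all tested genes, and 12 (11.4%) in Tert+/+ kidneys, against 10.6%. Lmo7, an actin-binding protein of adherens junctions, rose in G3 Tert-/- kidneys, to 1606 ± 229 in old against 1205 ± 105 in young mice (SD, n = 5 each), a log2 fold change of 0.41 ± 0.10 (adjusted p = 0.0332), although the groups overlapped. Gjb2, which encodes the gap junction protein connexin 26, fell in Tert+/+ kidneys, to 202 ± 31.2 in old against 360 ± 69.8 in young mice, a log2 fold change of -0.83 ± 0.14 (adjusted p = 0.00264), with no overlap. edgeR also called these genes, and DESeq2 called them together with Plekha7 and Pcdh17 in G3 Tert-/- and Pcdh7 in Tert+/+ kidneys.

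The list of genes that mark epithelial-to-mesenchymal transition held 10 genes in the table, of which 8 were tested, and 0 passed between genotypes at either age by limma, edgeR or DESeq2. At 47 weeks Snai1 had a log2 fold change of 0.60 ± 0.47 (adjusted p = 0.864), Zeb1 -0.068 ± 0.14 (adjusted p = 0.951), Zeb2 -0.010 ± 0.17 (adjusted p = 0.996) and Vim 0.25 ± 0.18 (adjusted p = 0.853). At 7 weeks Acta2 was at 0.54 ± 0.21 and Zeb1 at -0.38 ± 0.14, both with an adjusted p of 0.435. With age the log2 fold changes of the 8 tested genes were above 0 for 4 and below 0 for 4 in G3 Tert-/- kidneys (median 0.068). In Tert+/+ kidneys 5 were above 0 and 3 below (median 0.061). Of the 8 only Fn1, which encodes fibronectin, passed with age, and it fell in both genotypes. It fell to 62.9 ± 8.26 in old against 130.0 ± 33.1 in young G3 Tert-/- kidneys (adjusted p = 0.000608), and to 58.7 ± 5.11 in old against 118 ± 12.5 in young Tert+/+ kidneys (adjusted p = 0.00137). Of 9 fibroblast and pericyte markers, Col1a1 and Col3a1 also passed by limma with age in both genotypes, with lower values in old kidneys. Of all tested genes 2.24% passed in G3 Tert-/- and 0.649% in Tert+/+ kidneys. The log2 fold changes of the 9 markers were above 0 for 3 and below 0 for 6 in G3 Tert-/- kidneys (median -0.26). In Tert+/+ kidneys 4 were above 0 and 5 below (median -0.077). The marker sum was 2027 to 2586 in old and 2618 to 5422 in young G3 Tert-/- libraries, and 1579 to 2377 in old and 2438 to 3251 in young Tert+/+ libraries. The part of these markers in the fall of Fn1 was not tested.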

How the data were processed

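RNA from 20 kidney samples was sequenced from the 3′ end with a stranded kit that reads the sense strand, per the labels' protocols. The submitters' processing notes name GRCm38, DESeq2, HTSeq 0.6.1, TopHat2 2.0.10 and Bowtie 1.0.0 with SAMtools 0.1.19, and also FastQC 0.11.7, with no role or order. The deposited signal is 1 table of normalized counts, that is reads per gene that the authors divided by 1 size factor per library. Each library's lowest step (0.83 to 1.13) gave back whole reads for 100% of values within 1e-06, 7161690 to 9757594 a library. A single read is thus 0.83 to 1.13 normalized counts, and 3 reads are 2.49 to 3.38. Any read counted as above 0. The values are not divided by gene length, and no level is compared between genes. Each gene in the table was above 0 in at least 6 libraries, with at least 11 reads.

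Groups were taken from the labels, 5 libraries each. The labels do not state that each library is a separate mouse, so p-values measure the spread between these libraries. In all 40 pairs of libraries within a group the reads differed by more than sampling noise (chi-square per degree of freedom 3.6 to 86.6, genes with at least 10 reads in the pair), so none was counted as a repeat.

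The main test was limma 3.58.1 with a mean-variance trend, in R 4.3.3, two-sided, on log2(normalized count + 1) in 1 model of 4 group means with 16 residual degrees of freedom. Genes with a normalized count of at least 10 in at least 5 libraries entered (14630), Benjamini-Hochberg adjustment ran over all of them, and an adjusted p under 0.05 passed. Alternatives were edgeR 4.0.16 and DESeq2 1.42.0 on the recovered reads, TMM rescaling, other pseudocounts and filters, the compared groups alone, and fits without single libraries or without both that stood apart. The fit script was checked on simulated data.

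Members could all be named, but 1 is not reported here singly and is left out of the figures, while the counts include it. Values in every library are given for members that passed, for the 3 smallest p-values in a comparison where none passed, and for 14 genes of known kidney roles, with additions named as such. Members, panel, the 8 lists of other junction genes and the 12 marker lists were chosen with earlier results of these data known. Promoters are from RefSeq, and genes not matched there are named only.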

Additional observations from a re-analysis of the deposited data

Results flagged for a closer look

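For 24 genes in 4 groups of 5, the library at either end was set against the rest, and in 12 of these 96 cases its gap to the nearest library was over 0.71 of the group's range, the 95% critical value. For independent values chance would give about 1 in 20. Of these genes, Crb3 and Jup were chosen after their values were seen and others by smallest p, and all share the same libraries. The share of cases is thus not a test against chance. In G3 Tert-/- old replicate 1, Cdh16 had 1502 normalized counts, against 1679 to 1712 in the other libraries of its group, and Pard6b had 214, against 159 to 166. In G3 Tert-/- old replicate 5, Dsg2 had 185, against 134 to 143, and without this library the rise of Dsg2 with age still passed. In G3 Tert-/- young replicate 4, Cldn19 had 344, against 94.9 to 147, and Cldn8 had 244, against 108 to 127. In G3 Tert-/- young replicate 3, Cdh6 had 115, against 80.8 to 87.1.

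In Tert+/+ old replicate 4, Cldn4 had 76.6 normalized counts, against 51.2 to 56.0 in the remaining old Tert+/+ libraries, and Jup had 116, against 264 to 318. Pard6a had 50.6 in Tert+/+ old replicate 3, against 70.0 to 75.5. In Tert+/+ young replicate 1, Cdh16 had 3124, against 1677 to 1782, and Cldn8 had 251, against 101 to 138. Pard6b had 182 in Tert+/+ young replicate 5, against 220.0 to 233.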

How the results depend on the processing

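No paired analysis was possible because the replicate numbers were given in accession order and pair no samples. The number of junction genes that passed was the same in all 105 recounts, 0 between genotypes, in the interaction and with age in Tert+/+ kidneys, and 1 (Dsg2) with age in G3 Tert-/- kidneys. Over all genes the numbers moved more: between genotypes at 47 weeks 14 passed by limma and 50 by DESeq2, with 6 in a fit of the compared groups alone and 2 to 19 when 1 library was left out. At 7 weeks 0 passed by limma, 13 by DESeq2 and 0 to 2 without 1 library. With age 327 passed by limma in G3 Tert-/- kidneys, 530 by DESeq2, 661 without both libraries that stood apart and 192 to 339 without 1 library; in Tert+/+ kidneys it was 95 by limma, 211 by DESeq2, 53 in the compared groups alone and 56 to 125 without 1 library. For the interaction 1 gene passed by limma, 8 by DESeq2 and 0 to 2 without 1 library.

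Of 1969 refitted values of 24 named genes, 1892 kept their sign and their side of the threshold and 77 changed sign, in 24 of 101 gene and comparison pairs, none of which had passed. Without Tert+/+ young replicate 1 and Tert+/+ old replicate 4, the log2 fold change between genotypes at 47 weeks was -0.060 for Cldn10, -0.056 for Epcam and -0.016 for Jup, and at 7 weeks 0.063 for Cdh16, -0.011 for Cldn16 and 0.21 for Cldn8. With age in Tert+/+ kidneys it was then 0.040 for Ocln, -0.072 for Ctnnb1, -0.0037 for Pard6a (at most 0.26 without 1 library) and 0.45 for Crb3. edgeR and DESeq2 gave Epcam -0.0021 and -0.0003 between genotypes at 47 weeks, Cldn8 -0.061 and -0.057 with age in G3 Tert-/- and -0.042 and -0.040 in Tert+/+ kidneys, and Crb3 0.096 and 0.096 with age in Tert+/+ kidneys. Between genotypes at 47 weeks, leaving out 1 library in turn put Cdh2 at -0.12 to 0.0099, Cldn10 at -0.06 to 0.17, Cldn19 at -0.052 to 0.18 and Cldn8 at -0.099 to 0.096. It also put Epcam at -0.092 to 0.11 and Jup at -0.016 to 0.35. At 7 weeks it put Cdh2 at -0.10 to 0.16, Cdh16 at -0.18 to 0.063, Cldn16 at -0.072 to 0.13 and Cldn19 at -0.20 to 0.27. It also put Cldn4 at -0.049 to 0.41 and Cldn8 at -0.22 to 0.21. With age in G3 Tert-/- kidneys it put Cldn2 at -0.14 to 0.013, Cldn8 at -0.082 to 0.21, Ctnnd1 at -0.068 to 0.29 and Jup at -0.11 to 0.015. With age in Tert+/+ kidneys it put Cldn10 at -0.031 to 0.20, Cldn8 at -0.10 to 0.23, Tjp1 at -0.093 to 0.081 and Ocln at -0.078 to 0.057. It also put Ctnnb1 at -0.12 to 0.14, Epcam at -0.10 to 0.34 and Crb3 at -0.40 to 0.36. The cause was not tested. Depth limits the members with few reads, such as Cldn18, and the 11 below the filter.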

Other observations

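Among the 11 junction genes below the filter, Cldn11, which encodes a claudin known from myelin and the testis, was high in 2 libraries only and is named after its values were seen. It had 2.11, 6.14, 29.1, 0 and 4.04 normalized counts in old G3 Tert-/- kidneys, against 4.15, 0, 0.974, 0 and 0 in old Tert+/+ kidneys. In young kidneys it had 0.908, 2.94, 0, 29.1 and 1.07 in G3 Tert-/- mice, against 0, 0.965, 1.96, 0.924 and 0.841 in Tert+/+ mice. The 2 high libraries were G3 Tert-/- old replicate 3 and G3 Tert-/- young replicate 4, while all Tert+/+ libraries stayed at 4.15 or less. The listed keratins and desmosome linkers, taken as the median log2 departure from each gene's median library, were also high there, at 0.66 in G3 Tert-/- old replicate 3 and 0.65 in G3 Tert-/- young replicate 4.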
